A study of Mus musculus with 778 samples.

Results

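The early growth step compared oocytes of the GO1 class (30 to 45 µm in diameter) with oocytes of the GO2 class (50 to 55 µm) by single-cell RNA-seq. The members were the cells of the deposited count table whose names carry the stage GO1 (51 cells) or GO2 (26 cells), 77 of 223 cells in all. Both groups came from wild-type ICR females, an outbred strain, at 3 to 4 weeks of age. The ovaries were dissociated with collagenase IV and TrypLE, the oocytes were washed to remove somatic cells, and single oocytes were picked by hand. The same study also profiled non-growing oocytes (NGO, under 20 µm, from 3- to 4-day-old females), later growing oocytes (GO3, 60 to 65 µm) and fully-grown oocytes (FGO, over 70 µm).

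A growing oocyte enlarges inside its follicle while arrested in the first meiotic prophase. It builds the zona pellucida, keeps contact with the surrounding granulosa cells, stores mRNA for the egg and the embryo, and acquires DNA methylation over transcribed gene bodies. Transcription is high during growth and is shut down near the end of it, so that the stored transcripts have to last through meiosis and the first cleavage.

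The values were counts of unique molecular identifiers (UMIs), short random tags that let copies of one captured molecule be counted once. Each cell was scaled to counts per 1000000 UMIs (CPM). The cell names give the stage but not the library or the animal, so each stage was 1 pooled sample, and cells are not replicates of a stage. No test across cells was therefore made and no p-value is given. Differences were described in 3 weightings: the mean CPM over all cells of a stage, the mean over pairs of GO1 and GO2 cells with like totals, and the UMIs summed over a stage. A gene was called past the limit when 1 stage exceeded the other by 2-fold or more and reached 10 CPM. Differences are given as log2((GO2 + 1)/(GO1 + 1)), in CPM, so that negative values mean a lower level in GO2, and differences of low genes are understated.

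GO1 cells were shallower than GO2 cells. Their totals ran from 22279 to 3898137 UMIs with a median of 110146, against 95108 to 2468893 with a median of 676786 in GO2. In all, 24 GO1 cells and 2 GO2 cells lay under 100000 UMIs, and 6 GO1 cells and 4 GO2 cells lay over 2000000. Pairing within 1.5-fold of total UMIs left 20 pairs, with median totals of 373029 UMIs in GO1 and 448486 in GO2. The 4 libraries used 96 cell barcodes, of which 88 served 3 libraries and 8 served all 4, so that a barcode alone does not name a cell. Library and stage cannot be told apart, and depth and stage only as far as this matching goes.

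**Figure D1:**
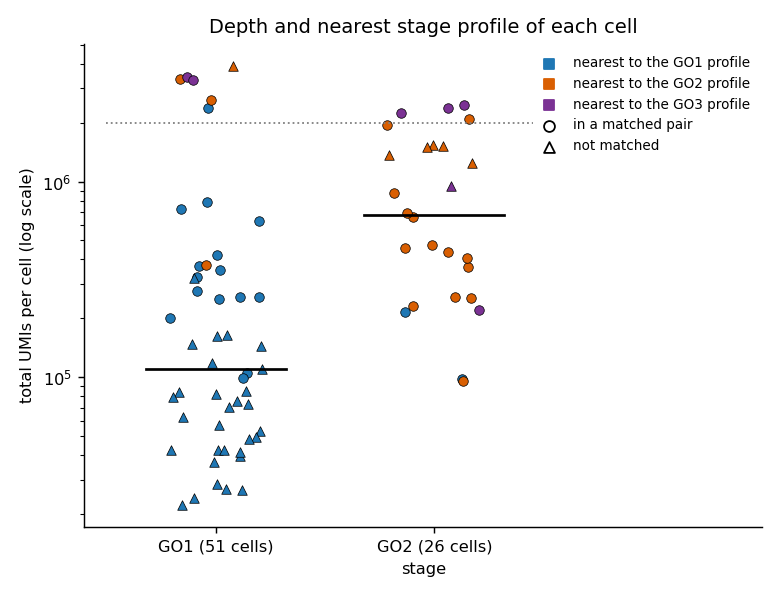
Total UMIs of each GO1 and GO2 cell on a log axis, with a bar at the median of the stage (110146 and 676786) and a dotted line at 2000000 UMIs. Circles are the cells of the 20 matched pairs, colour gives the stage profile most like the cell, and 5 of the 6 GO1 cells above the dotted line were nearest to the GO2 or GO3 profile.

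The deepest GO1 cells stood apart from the other cells of their stage. After every cell was thinned to 20000 UMIs, 45 of 51 GO1 cells correlated best with the mean GO1 profile, 4 with GO2 and 2 with GO3 (Spearman over 8890 genes, the cell left out of its own mean). Those 6 cells included 5 of the 6 GO1 cells over 2000000 UMIs, and the remaining one held 376203 UMIs. Among GO2 cells, 19 of 26 were nearest to GO2, 5 to GO3 and 2 to GO1. With a root mean square difference in log2(CPM + 1) in place of the correlation, 23 GO1 cells were nearest to GO1 and 28 to GO2, so the assignment of GO1 cells turned on the measure. Results are therefore given with and without the cells over 2000000 UMIs, which leaves 45 GO1 cells, 22 GO2 cells and 15 matched pairs.

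Another set of 3 GO1 cells weighed heavily on the genes lower in GO2. At 20000 UMIs they had 5145, 5221 and 5446 genes, the most of the stage, against 4898 in the next cell. They held 727285, 782536 and 2380942 UMIs, all were in matched pairs, and all were nearest to the GO1 profile. They were looked at after the values were seen, and results are given below with and without them, which leaves 48 GO1 cells and 17 matched pairs.

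The cells carried the transcripts that define oocytes. Zp1, Zp2, Zp3, Gdf9, Bmp15, Nobox, Dazl, Nlrp5 and Kit had at least 1 UMI in all 77 cells, while Figla was without a UMI in 3 GO1 cells and 1 GO2 cell, and Ddx4 in 8 and 1. The summed level of 15 granulosa cell markers ran from 0 to 302 CPM per GO1 cell (median 56.3) and from 0 to 118.96 per GO2 cell (median 41.95). Of these, Nr5a2, Cyp19a1 and Gata4 alone reached 10 CPM in a stage mean. For 12 theca and stromal markers the highest sum in a cell was 25.2 CPM, and for 12 blood and immune markers it was 20.2 CPM, with 8 of these 12 at 0 in both stages. Of 6 endothelial markers, Pecam1 alone reached 10 CPM, with means of 17.7 in GO1 and 35.2 in GO2, and 2 were at 0. No doublet caller was applied to these hand-picked cells.

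The number of genes per cell differed little between the stages once depth was equal. Thinned to 20000 UMIs, GO1 cells had 4204 ± 429 genes and GO2 cells 4308 ± 398 (mean ± SD over cells), and the 20 matched cells of each stage had 4459 ± 465 and 4272 ± 442. Without thinning the means were 7603 and 10352. The correlation between 2 thinned cells had a median of 0.53 within GO1, 0.60 within GO2 and 0.52 between the stages. Within the matched cells these medians were 0.57, 0.59 and 0.57. Across the matched sets, a GO1 and a GO2 cell thus resembled each other about as much as a pair of GO1 cells did. The matched GO1 set held 3 cells nearest to the GO2 profile and 2 nearest to GO3, and no median without them is given.

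With cells scaled to their totals, more genes were lower than higher in GO2 in each of the 3 weightings. In the mean over all cells, 908 of 7356 genes were lower in GO2 (12.3%) and 306 were higher (4.16%). Matching on depth left 398 lower (5.49%) and 32 higher (0.442%) of 7245 genes. In the summed UMIs, 223 genes were lower (3.03%) and 8 were higher (0.109%) of 7356. Of the 306 genes higher over all cells, 20 were past the limit in the matched cells, and of the 908 lower genes, 293 were, with none past the limit in the opposite direction. In all 3 weightings together, 2.13% of 7005 genes were lower and 0.0286%, or 2 genes, were higher. At 1.5-fold these became 705 lower (10.1%) and 26 higher (0.371%).

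With the deepest cells kept, the genes lower in all 3 weightings rested largely on the 3 GO1 cells with the most genes. Without these cells, 6 genes were lower in all 3 weightings (0.0885% of 6780), of which 5 were among the genes called with them, and the same 2 were higher (0.0295%). In the matched cells alone the lower share went from 5.49% to 2.36%, while over all cells it was 11.5% in place of 12.3%. Without the 3 cells and the cells over 2000000 UMIs together, 2.53% of 6746 genes were lower in all 3 weightings. Of these, 64 were among the genes called with all cells. In matched cells the lower share was then 4.81%. Leaving out 1 of the 3 cells at a time, with the deepest cells kept, gave lower shares in all 3 weightings of 0.463% (the cell with 2380942 UMIs), 1.22% (782536 UMIs) and 1.58% (727285 UMIs), in place of 2.13%. Leaving out any other single GO1 or GO2 cell gave between 1.65% and 3.02%. Of the genes lower in all 3 weightings, 82.6% had their highest matched GO1 value in 1 of the 3 cells. The mean log2(CPM + 1) over these genes was 5.87 to 6.28 in the 3 cells, 3.26 to 5.11 in the other matched GO1 cells (median 4.06) and 2.12 to 3.87 in matched GO2 cells (median 3.30). The genes were chosen on these cells, so these levels are a description.

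The excess of lower genes depended in part on the scaling, on the use of means and on whether cells were matched on depth. With the median over all cells in place of the mean, 17.8% of genes were higher in GO2 and 4.58% lower, a reversed split, while over matched cells the medians gave 2.10% higher and 3.17% lower. TMM factors of the stage sums moved differences up by 0.14 on the log2 scale and median-of-ratios factors by 0.16, and by less for genes of a few CPM. Over all cells, 8.09% of genes were then higher and 9.05% lower with TMM, and 8.69% and 8.66% with median-of-ratios, so the excess was small or gone under these factors. The factors came from the stage sums but were applied to means over cells, and they moved the median difference past 0. Over all cells that median went from −0.03 to 0.11 with TMM and 0.13 with median-of-ratios, and in matched cells from −0.08 to 0.05 and 0.07. In matched cells the lower genes still outnumbered the higher ones, at 3.36% against 0.805% with TMM and 3.16% against 0.957% with median-of-ratios. The differences below are for totals, and small negative ones may change sign under such a factor.

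**Figure D2:**
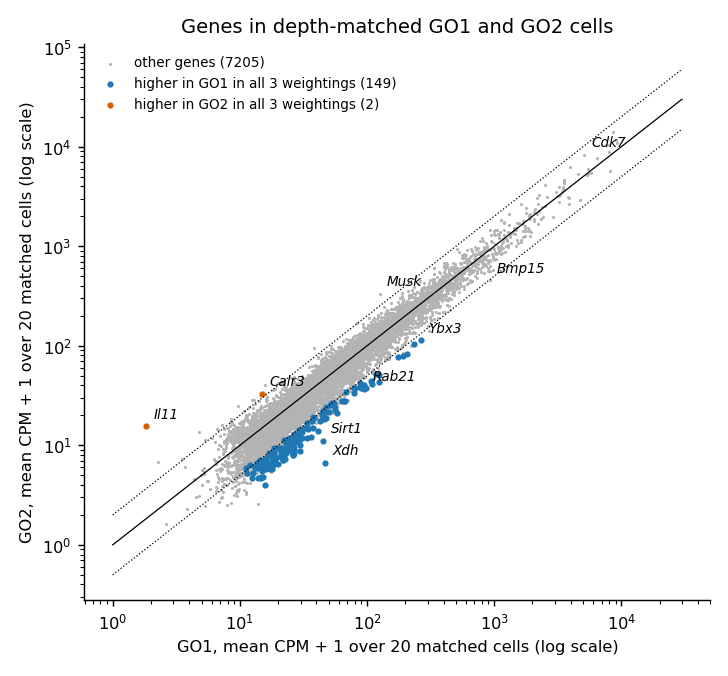
Mean CPM + 1 of each gene over the 20 matched GO1 cells (x) and the 20 matched GO2 cells (y), both on log axes, with lines at equal level and at 2-fold. Blue points are the genes lower in GO2 in all 3 weightings (2.13% of 7005 genes) and orange points the 2 higher genes, and Musk and Cdk7 lie above the line of equal level.

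The stages overlapped for each of these genes. No tested gene had every matched GO1 cell above every matched GO2 cell, or the reverse. There are 400 combinations of a matched GO1 with a matched GO2 cell, and ties count for neither stage unless stated. With ties split evenly, the GO1 cell was the higher in a median of 74.8% of combinations for the genes lower in all 3 weightings (range 58.5% to 89.8%) and of 52.5% for all tested genes. Each of the lower genes also had the lower median in GO2 among matched cells, and 83 of them by at least 2-fold.

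Sirt1, a NAD-dependent deacetylase of histones and other proteins (chr10:62781753-62844452, minus strand, mm9), ranked second among the lower genes, but was not among them without the 3 GO1 cells. Matched GO1 cells ran from 2.83 to 162 CPM with a median of 23.7, and matched GO2 cells from 0 to 36.3 with a median of 7.93. The means were 44.4 and 10.1 CPM, a log2 difference of −2.03, against −2.28 over all cells and −1.62 in the sums. Without the 3 cells these were −1.44, −2.13 and −0.76. Its summed UMIs gave 34.3 CPM in GO1 (exact Poisson 95% interval 32.1 to 36.6) and 10.5 in GO2 (9.26 to 11.8). These intervals cover counting error only.

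Rab21 and Kbtbd7 had UMIs in every matched cell. Rab21, a small GTPase of endosomes (chr10:114726919-114752647, minus strand), ran from 21.7 to 295 CPM in matched GO1 cells (median 83.5) and from 9.32 to 105.1 in matched GO2 cells (median 28.8). The GO1 cell was the higher in 86% of combinations. Kbtbd7, an adaptor of the cullin-3 ubiquitin ligase (chr14:79826200-79830846, plus strand), ran from 27.04 to 386 CPM (median 90.1) and from 27.2 to 61.5 (median 41.4). Its GO2 cells thus lay in the lower part of the GO1 range. Without the 3 GO1 cells the matched log2 differences of Rab21 and Kbtbd7 were −0.91 and −1.06, in place of −1.36 and −1.52, and −0.77 and −0.65 in the sums.

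Of the other genes with the largest differences, Rbbp6, a RING-type ubiquitin ligase, had matched means of 17.2 CPM in GO1 and 5.42 in GO2, and Ubqln2, which carries ubiquitinated proteins to the proteasome, 26.8 and 10.3. Ythdf1, a reader of N6-methyladenosine in mRNA, had 17.7 and 6.01, and Cdk13, a kinase of RNA polymerase II, 20.8 and 6.13. Ogt, which adds N-acetylglucosamine to nuclear and cytoplasmic proteins, had 24.3 and 7.73, and Rpia of the pentose phosphate pathway 15.5 and 5.56. These 6 genes were all below 30 CPM, where single cells hold few of their UMIs. Psd3, an exchange factor for Arf6, had 17.03 and 5.83, and the zinc finger gene Zfp709 14.03 and 4.48. Xdh, which oxidises purines, ranked first by its means (45.8 and 5.69), but 4 matched GO1 cells and 1 matched GO2 cell reached 10 CPM, and the medians were 1.85 and 0.209. Xdh and Ythdf1 were also lower in all 3 weightings without the 3 GO1 cells, as were Ccl2, Fam120a, Nmrk1 and 5430405H02Rik, the last of which was not called with them. Ccl2, a chemokine, then had matched means of 86.2 and 36.8 CPM, and Nmrk1, a nicotinamide riboside kinase, 16.7 and 6.67.

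The lower genes with the highest CPM, chosen after the values were seen, had lower medians as well as lower means in GO2. Ybx3, a cold-shock protein that binds mRNA, ran from 82.2 to 759 CPM in matched GO1 cells (median 203) and from 18.6 to 199 in matched GO2 cells (median 112.1). Rif1, which sets replication timing and guards DNA breaks, had medians of 150.9 and 93.1, and Pcbp1, a poly(C)-binding protein, 110.5 and 67.8. Jak2, the kinase of cytokine receptors, had medians of 81.9 and 40.6, with the GO1 cell higher in 89.5% of combinations. The highest matched GO2 cell for Jak2, at 72.005 CPM, lay under the GO1 median. Wnk1, a kinase of ion transport, had matched means of 203 and 82.5 CPM, Slain1, a partner of growing microtubule ends, 190.3 and 77.5, and Ywhag, a 14-3-3 protein, 123.8 and 50.3. B4galt6, which makes lactosylceramide, had medians of 75.8 and 39.9 CPM, and the GO1 cell was higher in 89.8% of combinations. When the 3 GO1 cells were left out, the matched log2 difference of Ybx3 was −0.75 in place of −1.21, that of Jak2 −0.93 in place of −1.28, and that of B4galt6 −1.10 in place of −1.41.

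Just 2 genes were higher in GO2 in all 3 weightings. Calr3, a germ cell relative of the chaperone calreticulin (chr8:74948075-74967769, minus strand), ran from 0 to 50.9 CPM in matched GO1 cells (median 7.601) and from 0 to 81.7 in matched GO2 cells (median 40.9). Its log2 difference was 1.23 over all cells, 1.15 in matched cells and 1.13 in the sums. Il11, a cytokine of the interleukin-6 family, had matched means of 0.833 and 14.6 CPM, but medians of 0 and 0.427, and 3 of 20 matched GO2 cells reached 10 CPM. No matched GO1 cell did, so its difference rested on those 3 cells.

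At 1.5-fold, 26 genes were higher in GO2 in all weightings, a set chosen after the values were seen. Musk, the receptor tyrosine kinase known from the neuromuscular junction, ran from 30.3 to 298 CPM in matched GO1 cells (median 90.6) and from 139.6 to 886 in matched GO2 cells (median 269). The GO2 cell was the higher in 88% of combinations. Cdk7, the kinase that activates other cyclin-dependent kinases, was the gene of this set with the highest CPM, with a range of 2985 to 10169 in matched GO1 cells (median 4849) and of 849 to 14720.1 in matched GO2 cells (median 8285). Cdc14b, a phosphatase that counters Cdk1, had matched medians of 191 and 362 CPM, Manba, the lysosomal beta-mannosidase, 91.4 and 187, and Tmem14c, a porphyrin transporter of mitochondria, 319 and 737. Arid5b, a DNA-binding protein with an ARID domain, had medians of 4.95 and 118.7 CPM and means of 37.01 and 94.5, with its highest matched GO1 cell at 373.

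**Figure D3:**
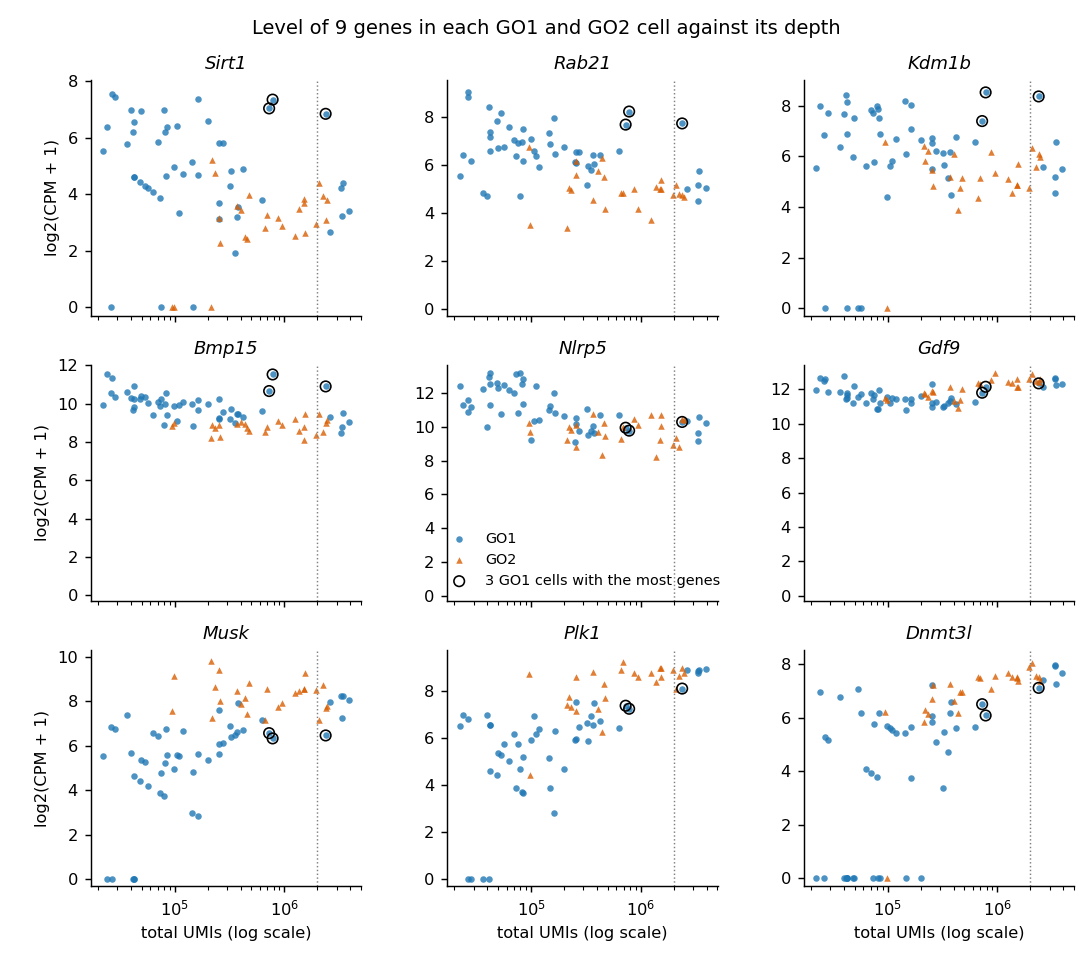
Level of 9 genes as log2(CPM + 1) in every GO1 cell (blue circles) and GO2 cell (orange triangles) against the cell's total UMIs on a log axis, with a dotted line at 2000000 UMIs and black rings around the 3 GO1 cells with the most genes. The ringed cells lie above the other GO1 cells of like depth for Sirt1, Rab21, Kdm1b and Bmp15. The 6 GO1 cells beyond the line lie among the GO2 cells for Plk1 and Dnmt3l, and below the line Musk has a higher mean in matched GO2 than in matched GO1 cells (353 and 94.6 CPM).

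Counts of higher genes turned on the deepest cells. Without the cells over 2000000 UMIs, an alternative chosen after seeing the data, 1.55% of 6950 genes were higher in GO2 in all 3 weightings and 337 were lower (4.85%). Il11 was among the higher genes in both cases, while Calr3 was not among them without the deep cells. In the matched cells alone, 169 genes were then higher (2.36% of 7159) and 549 lower (7.67%). The values of the 6 deep GO1 cells were not used to choose these genes. The cells were set aside after 5 of them were found nearest to the GO2 or GO3 profile, however, so where they lie on these genes is a description. The mean of the 6 cells lay nearer to the GO2 than to the GO1 mean of the remaining cells for all but 1 of the higher genes and for 42.4% of the lower ones. One of the 6 is among the 3 GO1 cells with the most genes, and with the median of the 6 in place of their mean the lower share was 89.3%, and the higher one 98.1%. For Rab21 that median was 33.2 CPM, against 30.3 in GO2 and 93.7 in the other 45 GO1 cells. Without the 3 cells and the cells over 2000000 UMIs together, 1.63% of 6746 genes were higher in all 3 weightings and 2.53% lower.

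Plk1, a kinase that drives entry into and passage through division, is an example. It ran from 277 to 494 CPM in the 6 deep GO1 cells and from 0 to 184 in the other 45, while GO2 cells ran from 20.4 to 613 with a median of 393. The deep GO1 cells thus lay entirely above the other GO1 cells and inside the GO2 range. In the 15 shallower pairs its means were 104.4 and 284 CPM, a log2 difference of 1.44, against 0.77 in all 20 pairs. Musk had 94.6 and 353 CPM in the shallower pairs, Pias4, a SUMO ligase, 19.8 and 64.5, and the translation factor Eif5a 199 and 533. Kmt2d, which methylates histone H3 lysine 4, had 57.5 and 154.9 CPM, and Akt1s1, an inhibitor of mTOR complex 1, 12.5 and 35.5. Opa3, a mitochondrial protein, had 2.103 and 11.4 CPM. Of the lower genes, Sirt1 led with 48.2 and 9.41 CPM, followed by the transcription factor Yy1 with 11.1 and 1.74. Crls1, cardiolipin synthase, had 26.7 and 5.67 CPM, and Trrap, a scaffold of histone acetyltransferases, 16.1 and 3.17. The 15 shallower pairs still held the GO1 cells with 727285 and 782536 UMIs, which are among the 3 with the most genes. Levels of these genes in the shallower pairs without those cells are not given.

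The genes of DNA methylation that the study followed did not share a direction. Dnmt3l, the cofactor of the de novo enzymes, ran from 0 to 249 CPM in GO1 cells (median 42.8) and from 0 to 259 in GO2 cells (median 155.97). Its log2 difference was 1.31 over all cells, 0.50 in matched cells and 0.21 in the sums, and 0.82 in the 15 shallower pairs. The 6 deep GO1 cells ran from 136.9 to 249 CPM and the other 45 from 0 to 148.6. Dnmt3a, the de novo methyltransferase of oocytes, had means of 319 and 162 CPM over all cells but 169.6 and 163 in matched cells, so its difference of −0.98 became −0.06. Kdm1b, the H3K4 demethylase needed for methylation of imprinted genes in oocytes (chr13:47138868-47179982, plus strand), was lower in GO2 in each weighting, with matched medians of 71.6 and 44.9 CPM. Its log2 differences were −1.41 over all cells, −0.98 in matched cells, −1.05 in the sums and −1.02 in the shallower pairs, and it was past the limit in all of these but the 20 matched pairs. With the 3 GO1 cells left out they were −1.28 over all cells, −0.44 in matched cells and −0.41 in the sums, so Kdm1b was past the limit over all cells alone.

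With the 3 GO1 cells with the most genes kept, the genes of maintenance and removal were lower in GO2 by less than the limit. Dnmt1 in matched cells with median-of-ratios factors was the exception, with no lower level. Tet3, the dioxygenase of oocytes, had matched means of 321 and 241 CPM, Uhrf1, which guides Dnmt1 to new DNA, 228 and 181, and Dnmt1 811 and 729. Their log2 differences in the 3 weightings lay between −0.55 and −0.15. Among the other genes of the de novo list, Setd2, which writes histone H3 lysine 36 trimethylation, had 51.7 and 29.1 CPM in matched cells, and Dppa3, which protects the egg genome, 5826 and 5502. Without the 3 GO1 cells, the matched log2 differences of Tet3, Uhrf1 and Dnmt1 were 0.06, −0.09 and −0.06. The 4 tested genes of maintenance and removal then had a matched median of −0.07, with 3 lower and 1 higher in GO2. Over all tested genes the median was −0.05. With the deepest cells left out too, these medians were 0.004 and −0.03.

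Zona pellucida genes split. Zp3, a sperm-binding component, ran from 1397 to 5829 CPM in GO1 cells (median 2814) and from 545 to 6749.7 in GO2 cells (median 4973). Zp1, which links the filaments, had medians of 525 and 1252. Zp2 had medians of 624 and 545, and its log2 difference was negative in each weighting (−0.39, −0.43 and −0.37), against 0.64, 0.37 and 0.30 for Zp3. None of the 3 was past the limit.

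Bmp15 and Gdf9, partners in signalling from the oocyte to granulosa cells, went opposite ways. Bmp15 ran from 355 to 2946 CPM in GO1 cells (median 971) and from 279 to 706 in GO2 cells (median 463), and the GO1 cell was higher in 90.2% of matched combinations. Its log2 difference was −1.22 over all cells, −1.02 in matched cells and −0.79 in the sums, and −1.12, −0.70 and −0.36 without the 3 GO1 cells. Gdf9 ran from 1782 to 6932 CPM (median 2986) and from 1954 to 7804 (median 4528), with differences of 0.41, 0.30 and 0.22, all short of the limit. Bmp6, of the same family, was lower in GO2 past the limit in all 3 weightings, with matched means of 62.6 and 26.9 CPM. Its log2 difference was −0.83 in matched cells, short of the limit, when the 3 GO1 cells were left out.

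Genes of contact with granulosa cells were mostly lower in GO2, by less without the 3 GO1 cells. Of 10 tested members, 9 were lower in matched cells, or 5 with TMM factors, with a median log2 difference of −0.45 beside −0.08 over all tested genes, and 5 were lower by 1.5-fold in all 3 weightings, beside 10.1% of all genes. Without the 3 GO1 cells the median was −0.17, with 6 of 10 lower, beside −0.05 over all tested genes. Tjp1, a scaffold of tight junctions, had matched means of 25.5 and 7.94 CPM and was the one member past the 2-fold limit in all 3, and with a difference of −0.88 in the sums it was not without the 3 GO1 cells. Kit, the receptor for Kit ligand from granulosa cells, ran from 10.1 to 566 CPM in GO1 cells (median 122.1) and from 27.4 to 81.8 in GO2 cells (median 50.7). Cdh1, E-cadherin, had 71.97 and 38.3 in matched cells and Ctnnb1, beta-catenin, 122.5 and 66.1. Gja4, the connexin of the oocyte side of the gap junction, had 451 and 442. The summed granulosa cell markers had medians of 47.5 CPM in matched GO1 cells and 42.3 in matched GO2 cells, and means of 57.9 and 42.4. Their 3 tested members had a matched median log2 difference of −0.41, with 2 lower and 1 higher in GO2. The part of granulosa cell transcripts in the differences of the contact genes was not tested.

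Most members of 2 lists of chromatin regulators were lower in GO2, by less without the 3 GO1 cells. The polycomb list had a median of −0.51 in matched cells (11 of 14 members below 0, or 10 with TMM factors) and the list of H3K4 and H3K9 modifiers −0.60 (8 of 10 below 0, or 6 with TMM factors), beside −0.08 over all tested genes. Leaving out the 3 GO1 cells gave medians of −0.13 and −0.20, beside −0.05. Members below 0 were then 11 of 14 and 7 of 10, beside 4015 of 7356 tested genes. Rnf2, the ubiquitin ligase of polycomb complex 1, had matched means of 77.9 and 36.1 CPM and Suz12, a core member of complex 2, 166 and 91.97, whereas Ezh2 had 539.6 and 565 and Eed 329 and 361. Of the H3K4 methyltransferases, Setd1b had 14.4 and 6.77 CPM and Kmt2c 119.98 and 71.95, while Kmt2d stood the other way with 92.7 and 166. The 13 remodelling ATPases had a matched median of −0.29, with 8 below 0. Without the 3 GO1 cells it was −0.07, with 7 below 0, beside −0.05 over all tested genes. Among them, Ino80 was past the limit in all 3 weightings, with 16.6 and 7.19 CPM. Without the 3 GO1 cells it had 11.4 and 7.02 CPM and was short of the limit. Hells, needed for DNA methylation, had 387 and 467.

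Histone genes that replace the replication-type forms differed by member. H1foo, the linker histone of oocytes, ran from 1849 to 13719 CPM in GO1 cells (median 6046) and from 9881 to 24020.2 in GO2 cells (median 14042). The GO2 cell was the higher in 94.2% of matched combinations, and the log2 difference was 1.14 over all cells, 0.70 in matched cells and 0.51 in the sums. H3f3b, which encodes histone H3.3, had matched means of 6379 and 7641 CPM, whereas H3f3a, which encodes the same protein, had 654 and 433 and H2afz, the variant H2A.Z, 302 and 157.1.

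The maternal-effect and oocyte-restricted families did not share a direction. All 9 genes of the Nlrp4, Nlrp9 and Nlrp14 families were lower in GO2 in each weighting, with medians of −0.67, −0.45 and −0.45, and 3 were past the limit over all cells but none in matched cells, beside 12.3% and 5.49% of all tested genes. Without the 3 GO1 cells the matched median was −0.29, with all 9 lower. With TMM factors 8 of the 9 were lower in matched cells. Nlrp14 had means of 2749 and 1363 CPM over all cells and 1737 and 1272 in matched cells. Nlrp5, of the subcortical maternal complex, had 2976 and 952 over all cells but 1082 and 916 in matched cells, so that its log2 difference went from −1.64 to −0.24. The 14 Fbxw genes of oocytes had a median of 0.57 over all cells (13 above 0) and 0.11 in matched cells (10 above 0). Tcl1, a cofactor of the kinase Akt, had 2505 and 4151 CPM in matched cells, and the GO2 cell was higher in 88.8% of combinations. Nlrp, Fbxw, Oas1 and Obox genes have close copies among which UMIs could have been split.

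Genes of meiotic resumption leaned to higher levels in GO2 over all cells. Of 22 tested members, 15 were above 0 over all cells with a median of 0.24, and 14 in matched cells with a median of 0.04. Ccnb1, cyclin B1, ran from 169 to 1959 CPM in GO1 cells (median 657) and from 968 to 2287 in GO2 cells (median 1485). Mos, the kinase that holds the egg in metaphase, had 456 and 622 CPM in matched cells and Cdc20, the activator of the anaphase-promoting complex, 73.3 and 110.4. The checkpoint kinase genes Bub1 and Bub1b stood the other way, with 86.8 and 60.4 CPM and 357 and 268. Among 9 genes of the synaptonemal complex and meiotic cohesin, all were lower in GO2 over all cells, or 7 with TMM factors. In matched cells 6 were lower, or 4 with TMM factors. Beside them, 3768 of 7356 tested genes were lower over all cells and 4277 in matched cells. The matched median of the list was −0.14, against −0.08 over all tested genes. Sycp2 gave 120.6 and 55.3 CPM over all cells and 74.6 and 57.96 in matched cells.

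Cytoplasmic ribosomal protein genes were the largest list and mostly lower in GO2. Of 77 tested, 68 were lower over all cells and 71 in matched cells, with medians of −0.66 and −0.45, and −0.21 in the sums. With TMM factors 63 and 62 of them were lower. In matched cells none was past the limit, against 17 over all cells, beside 5.49% and 12.3% of all tested genes. Leaving out the 3 GO1 cells gave a matched median of −0.46. Rps29 ran from 302 to 3718 CPM in GO1 cells (median 1992) and from 79.3 to 1694 in GO2 cells (median 905), and Rpl41 from 504 to 4644 (median 2459.9) and from 286 to 1972 (median 1079). Rpl15 had a higher matched mean in GO2, at 344 CPM against 299.8 in GO1. Without the pairs over 2000000 UMIs the median of the list was −0.60. Processed pseudogenes of these genes are common, which leaves single counts uncertain.

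The mitochondrial lists were more mixed. The 76 mitochondrial ribosomal protein genes had a median of −0.04 in matched cells (33 above 0 and 43 below) and the 76 nuclear-encoded respiratory chain genes −0.11 (26 above and 50 below), and both medians were above 0 with TMM factors (0.10 and 0.03). Mrps33, of the small mitochondrial ribosomal subunit, had matched means of 2917 and 1957 CPM and Uqcrb, of complex III, 362 and 189.5. Proteasome subunits had a median of 0.04 and genes of glycolysis and pyruvate use 0.02. Ldhb, which makes pyruvate from lactate, had 9257 and 10981 CPM in matched cells, and Pkm, pyruvate kinase, 246 and 344. The 8 tested genes of cholesterol synthesis had a median of 0.27 with 6 above 0, but −0.01 in the sums.

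**Figure D4:**
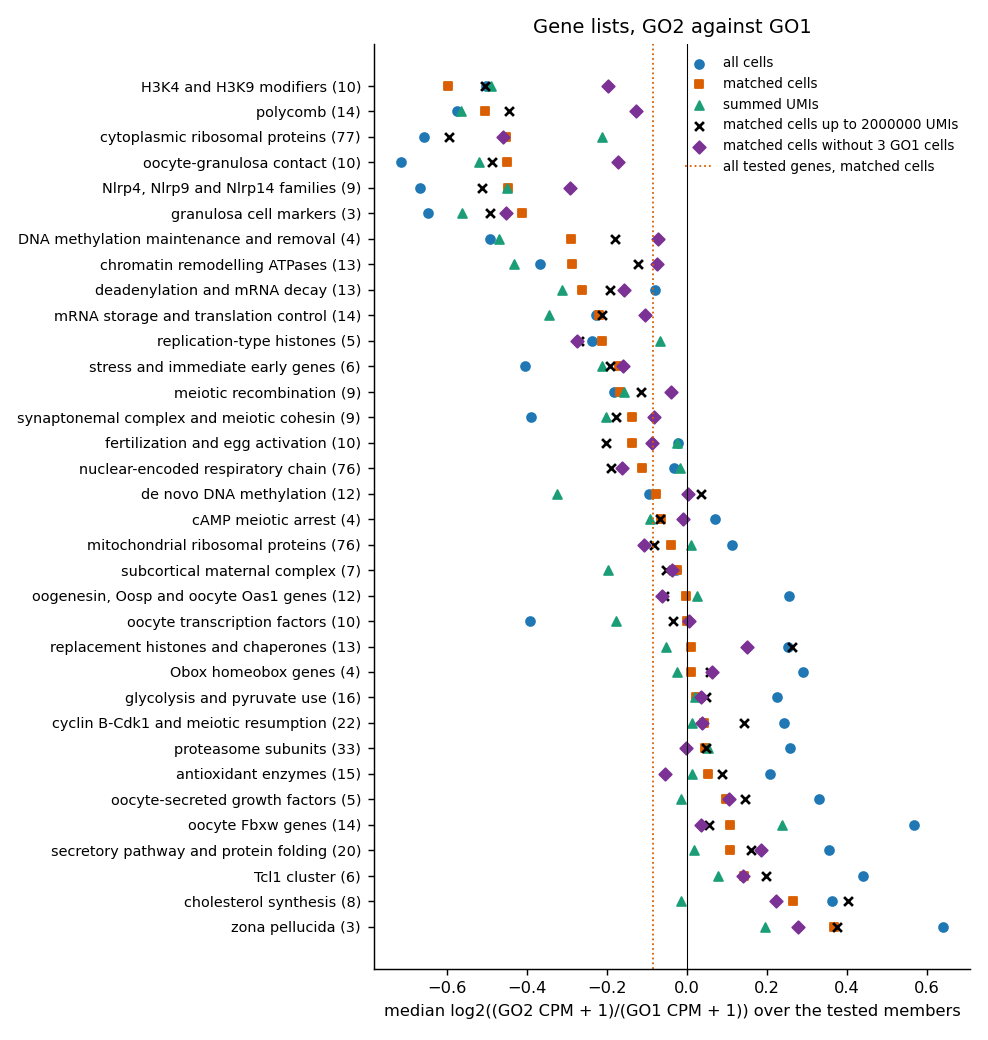
Median log2 difference (GO2 over GO1, in CPM + 1) of each gene list with at least 3 tested members, in 5 choices of cells and weighting, with the number of tested members in brackets. Ribosomal proteins, polycomb genes and H3K4 and H3K9 modifiers lie left of 0 in each, the latter 2 nearer to 0 without the 3 GO1 cells with the most genes (−0.13 and −0.20), and zona pellucida genes lie right of it.

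Regulators of stored mRNA did not share a direction. Of 14 tested genes of mRNA storage and translation control, 9 were below 0 in matched cells, or 7 with TMM factors, with a median of −0.22. Over all tested genes, 4277 of 7356 were below 0, with a median of −0.08. Without the 3 GO1 cells the list median was −0.11, beside −0.05. Unless stated, the means below include those cells. Lsm14b, a protein of storage granules, had matched means of 100.2 and 55.8 CPM, Eif4e1b, a cap-binding protein of oocytes, 147.4 and 83.7, and Ybx2, which coats stored mRNA, 103.3 and 59.3. Zar1, which is needed for the oocyte's storage compartment, had 1317 and 1632. The 13 genes of deadenylation and decay had a median of −0.26, or −0.16 without the 3 GO1 cells. Among them, Cnot6 was past the limit in all 3 weightings, with 21.996 and 9.41 CPM. Without the 3 GO1 cells it had 16.3 and 9.54 CPM and was short of the limit. Cnot6l, its relative, had 216 and 134.1, and Btg4, the adaptor that triggers decay in the egg, 1443 and 1456.

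The genes lower in GO2 in all 3 weightings, which rested largely on 3 GO1 cells while the deepest cells were kept, had long transcripts. Lengths came from GENCODE vM1, with the longest coding transcript of each gene, and 95.3% of the genes lower in all 3 weightings and 88.7% of the 7356 tested genes had a value. The median coding length was 2498 bases for the lower genes and 1299 for all tested genes, and the median 3′ UTR length was 2024 and 1014 bases. The median GC content of the 3′ UTR was 39.7% and 43.01%. Across 5 equal bins of coding length, from shortest to longest, the median log2 difference in matched cells was −0.06, 0.03, −0.01, −0.11 and −0.30. The share of genes lower in all 3 weightings went from 0.459% in the shortest bin to 5.53% in the longest. Without the cells over 2000000 UMIs these shares were 2.45% and 9.45%, and the median difference in the longest bin was −0.24. Without the 3 GO1 cells the matched medians were −0.08, 0.03, 0.01, −0.04 and −0.12, and the share past the limit in matched cells in the longest bin was 3.84% in place of 11.3%. Across 5 bins of 3′ UTR GC content, from lowest to highest, the matched median went from −0.20 to 0.11, or from −0.13 to 0.09 without the 3 GO1 cells. Length, GC content and expression level are related among genes and were not separated.

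**Figure D5:**
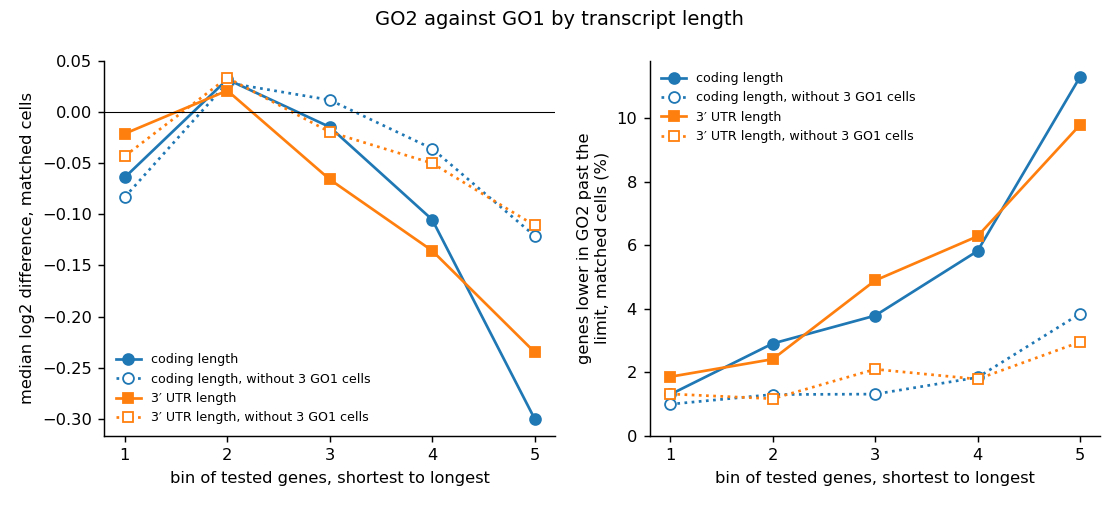
Left, median log2 difference between matched GO2 and GO1 cells in each of 5 equal bins of tested genes ranked by coding length (circles) or 3′ UTR length (squares), with dotted lines and open symbols for the values without the 3 GO1 cells with the most genes. Right, percentage of the genes of each bin that were lower in GO2 past the limit in matched cells, which in the longest bin by coding length was 11.3% with and 3.84% without those cells.

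The mean CPM over cells of the same genes in the other stages places the early step within growth. In the order NGO, GO1, GO2, GO3, FGO, the means of Sirt1 were 4.23, 51.5, 9.79, 24.9 and 19.4. Rab21 had 10.4, 124.2, 34.6, 38.3 and 27.96 in the same order, and Kbtbd7 7.55, 135.5, 43.97, 51.9 and 27.2. All 3 thus had their highest mean in GO1. They were named for their fall from GO1 to GO2 in these same cells, as Musk was for its rise, so a high or low GO1 mean beside GO2 was selected for. The GO1 means include the 3 GO1 cells with the most genes. Musk had 95.4, 81.4, 344, 195 and 86.3, and Dnmt3l 16.6, 57.1, 142.6, 95.9 and 30.04, both with their highest mean in GO2. Kdm1b had 345, 120.03, 44.7, 90.96 and 128.96, and Nlrp5 2025, 2976, 952, 1794 and 3441, both lowest in GO2. H1foo had 4419, 6395, 14104, 11917 and 10078. These means give every cell the same weight, and depth also differed between the other stages, whose totals ran from 51400 to 3828823 UMIs.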

How the data were processed

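Single oocytes were profiled by RNA-seq with cell barcodes and UMIs. The authors' own processing, per the study's methods, used Tophat 2.0.12 with mm9 transcripts and counted each UMI once per gene. They kept cells with more than 3000 genes and 20000 to 4000000 transcripts, and dropped cells with a high share of ERCC spike-in counts. The deposited values are raw UMI counts for 23201 genes, with the 4 libraries in one table. Whether counting used strand is not given in the sources used here.

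Here each cell was scaled to CPM. GO1 and GO2 cells were paired without replacement within 1.5-fold of total UMIs by optimal assignment. Thinning drew UMIs without replacement (seed 1). Summed UMIs carry exact Poisson 95% intervals. The code was tested on simulated data with known changes. Since the columns name no library or animal, no test was run. TMM (edgeR 4.0.16) and median-of-ratios (DESeq2 1.42.0) factors, computed on the stage sums, served only as alternative scalings. The work used R 4.3.3 and Python 3.11.15 with scipy 1.17.1, pandas 2.3.3 and numpy 2.4.6. Gene positions are from GENCODE vM1 on mm9.

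Named genes were the 12 largest differences each way among genes past the limit in all 3 weightings, ranked by the smallest of the 3 log2 differences (just 2 were higher), members of 37 gene lists that were past the limit or most abundant, and the methylation genes Dnmt3l, Dnmt3a, Tet3, Dnmt1, Uhrf1 and Kdm1b. Other members of these lists were named for their role after the values were seen. The cells and lists were chosen with earlier results of these data known. The list of genes at 1.5-fold, the most abundant lower genes, the matched cells with other scalings and the results without cells over 2000000 UMIs, without each cell in turn or without the 3 GO1 cells with the most genes were added after seeing the data.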

Additional observations from a re-analysis of the deposited data

How the results depend on the processing

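Shares are of the genes tested under each setting, first higher and then lower in GO2. The main shares over all cells were 4.16% and 12.3%. They became 0.109% and 3.03% in summed UMIs, 17.8% and 4.58% with medians, 0.497% and 5.56% without GO1 cells under 100000 UMIs, 16.9% and 22.3% with no minimum CPM, 4.25% and 8.97% at 50 CPM or more, and 17.5% and 24.7% at 1.5-fold. The higher share alone moved by over 1.5 times without the 10 deepest cells of each stage (8.51%), with every cell thinned to 20000 UMIs (8.15%), with TMM factors (8.09%), with median-of-ratios factors (8.69%) and without cells over 2000000 UMIs (8.74%, or 9.81% with the 3 GO1 cells with the most genes left out too). In the matched cells, with main shares of 0.442% and 5.49%, the higher share was 1.29% with a stricter limit on the totals of a pair, 0.242% in summed UMIs, 2.36% without pairs over 2000000 UMIs and 2.95% with the 3 GO1 cells left out too, and the lower share was 2.36% without the 3 GO1 cells. Both matched shares moved at 50 CPM or more (0.0861% and 2.07%), at 1.5-fold (4.04% and 16.5%), with medians (2.10% and 3.17%), with TMM factors (0.805% and 3.36%) and with median-of-ratios factors (0.957% and 3.16%). Genes past the limit in all 3 weightings, 0.0286% and 2.13%, became 0.371% and 10.1% at 1.5-fold, 0% and 0.631% at 50 CPM or more, and 1.55% and 4.85% without cells over 2000000 UMIs, where 93.3% of the lower genes were still past the limit. Without the 3 GO1 cells the lower share was 0.0885%, and without both sets of cells the shares were 1.63% and 2.53%. The matched cells with medians, with other factors, without cells over 2000000 UMIs or without the 3 GO1 cells were chosen after seeing the data.

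The log2 difference over all cells was compared for 54 genes. These were the genes with the largest differences, the methylation genes, the genes higher at 1.5-fold and the lower genes with the highest CPM. Genes named only as list members were left out. The difference moved by over 1.5-fold for 10 of the 54 in the matched cells and for 15 in the sums. For 35 gene lists the median did so for 1 list, in the sums. The factors shift each difference by at most 0.14 (TMM) or 0.16 (median-of-ratios), so they could move none that far. The lists with a median below 0 numbered 19 over all cells, 22 in matched cells, 24 in the sums and 14 with either set of factors. The difference in mean genes per cell went from 103.7 to 2749 without thinning. By the root mean square difference 23 GO1 cells were nearest to GO1, not 45. Beyond this the cause was not tested. No paired analysis was possible because the cell numbers do not link cells of different stages, and leaving out a replicate does not apply to stages of 1 pooled sample each.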
